A study of Mus musculus with 15 samples.

Results

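The mitochondrial ribosomal protein genes are the nuclear genes for the protein subunits of the ribosome inside mitochondria. They were taken as every gene whose symbol in the platform annotation starts with Mrpl or Mrps followed by a digit, and each gene was read from the probe set with the highest mean over the 15 arrays. This gave 76 genes, 47 named Mrpl and 29 named Mrps, with 156 probe sets, out of 18194 genes with a single symbol and 45101 probe sets. All 76 passed the filter on low signals, with mean signals in naive joints between 177 and 3987 intensity units.

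The study measured RNA levels in the synovium of mouse knees on 15 Affymetrix arrays, in 5 groups of 3. The groups are naive mice, sampled as healthy joints, and mice with collagen-induced arthritis (CIA) sampled at joints with no, mild, moderate or severe swelling. In this arthritis model an immune response to type II collagen inflames the joints, and the mice received 100 µg of it in adjuvant on day 0 with a boost of 100 µg on day 21. The treatment text names that immunization for the naive mice too, and was taken as a text meant for all samples together. Strain, genotype, age and sex are not given in the sources used here. Nothing in the labels says that the 3 replicates of a group are separate animals, so the p-values rest on the spread between samples alone, and that spread may be technical.

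The mitochondrial ribosome translates the few proteins encoded by mitochondrial DNA, all of them core subunits of the oxidative phosphorylation complexes. Its large subunit holds the peptidyl transferase centre and the exit tunnel, and its small subunit holds the decoding centre. Some of its proteins descend from bacterial ribosomal proteins and others exist only in mitochondria. All are made in the cytosol and imported, and many of their genes are known as targets of the transcription factors NRF1, GABP (an ETS factor) and YY1.

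The members moved largely together over the groups, so their promoters were searched for the letters that these factors are known to bind. RefSeq windows on mouse GRCm38.p6, from 250 bases before to 50 bases after the start site, were at hand for 67 of the 76 genes. The promoters shown include those of Mrpl42, the member with the lowest fold change in severe swelling, and Mrps11, which lies head to head with another member. Those of Mrps18a and Mrps21 each hold a pair of the motifs and were picked among the members with the lowest fold changes. Other members hold pairs too. Of them, Mrps12, Mrps26 and Mrps27 were called lower in severe against naive joints, and Mrpl17, Mrpl32, Mrpl52 and Mrpl57 were not called. Capitals mark AAGATGG (YY1), CCGGAAG (ETS) or, for NRF1, GCGC followed by any base and TGCGC, on either strand.
Mrpl42, chr10:95501900-95502199, minus strand: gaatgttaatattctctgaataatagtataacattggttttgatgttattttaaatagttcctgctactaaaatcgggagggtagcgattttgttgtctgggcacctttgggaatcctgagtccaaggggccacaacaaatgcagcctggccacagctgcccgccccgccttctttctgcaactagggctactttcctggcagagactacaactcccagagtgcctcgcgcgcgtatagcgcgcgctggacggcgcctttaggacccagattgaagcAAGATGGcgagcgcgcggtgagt
Mrps11, chr7:78782881-78783180, plus strand: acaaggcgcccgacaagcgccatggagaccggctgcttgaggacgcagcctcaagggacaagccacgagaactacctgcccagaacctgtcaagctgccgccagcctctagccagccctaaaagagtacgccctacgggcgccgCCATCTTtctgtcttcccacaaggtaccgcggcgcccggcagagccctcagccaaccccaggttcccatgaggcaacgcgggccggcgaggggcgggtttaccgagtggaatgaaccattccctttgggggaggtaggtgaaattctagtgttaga
Mrps18a, chr17:46110754-46111053, plus strand: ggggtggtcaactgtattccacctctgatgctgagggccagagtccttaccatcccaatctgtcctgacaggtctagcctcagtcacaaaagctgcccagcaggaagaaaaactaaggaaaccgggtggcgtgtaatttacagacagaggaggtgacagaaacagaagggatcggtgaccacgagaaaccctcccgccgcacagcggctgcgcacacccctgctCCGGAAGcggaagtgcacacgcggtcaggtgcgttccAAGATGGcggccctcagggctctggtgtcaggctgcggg
Mrps21, chr3:95871465-95871764, minus strand: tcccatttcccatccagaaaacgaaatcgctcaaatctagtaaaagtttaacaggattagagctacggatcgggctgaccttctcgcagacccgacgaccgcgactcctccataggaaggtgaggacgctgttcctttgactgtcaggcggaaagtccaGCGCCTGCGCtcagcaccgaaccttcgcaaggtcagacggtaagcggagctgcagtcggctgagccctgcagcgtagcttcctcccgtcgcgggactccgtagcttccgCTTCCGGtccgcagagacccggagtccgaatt

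Of the 67 members with a window, 41 (61.2%) held at least 1 of the 3 motifs, against 5414 of the 27025 genes with a RefSeq window and 30.7% of the 11481 such genes tested here. The ETS letters stood in 25 members (37.3%, against 9.93% of all genes with a window and 17.5% of those tested). The YY1 letters stood in 13 (19.4%, against 7.28% and 7.85%) and the NRF1 letters in 12 (17.9%, against 5.19% and 1153 of the 11481 tested). The letters TATAAA of the TATA box stood in 5 members (7.46%, against 15.7% of all genes with a window and 10.1% of those tested). No ETS match overlapped a YY1 match in a member. Matches were read with no mismatch and are a description of these letters, not of binding. Mrps11 and Mrpl46 start 42 bases apart on opposite strands, so their windows share 141 bases.

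The samples differed in more than swelling. The first principal component over all genes held 70.2% of the variance, and mild replicate 2 (-7.34) lay apart from the other mild arrays (18.5 and 35.7) on it. Prg4, the lubricin gene of synovial lining fibroblasts, averaged 8698 intensity units in severe and 2369 in naive joints. Skeletal muscle genes were also bright: Acta1, the actin of skeletal muscle, averaged 11590 units in severe and 10600 in naive joints, so the samples labelled synovium held muscle RNA in both groups. Of the 24 muscle markers, 12 were called lower and 0 higher in severe than in naive joints, the lowest signal of any of them on an array was 26.6 units, and their summed signal was 118404 to 157362 in severe and 162604 to 183192 in naive joints. With arrays scaled on their hybridization control probe sets in place of the authors' scaling, 8 of them were lower, with a median of 0.07. On that scale 42.4% of all genes were called in either direction. Of 8 adipocyte markers, 6 were lower and 0 higher, with a median of -1.61 (-1.28 on the scale of the hybridization controls, with 5 lower), and their summed signal was 4943 to 7267 in severe and 12228 to 15963 in naive joints. All 8 fibroblast, 7 of 8 macrophage and 6 of 7 neutrophil markers were called higher, where 32.2% of all genes were higher and 22.9% lower. All 5 cartilage markers tested were called higher too, with a median of 2.545. The summed signal of the 6 cartilage markers was 4020 to 6391 in severe and 748 to 844 in naive joints. The actin 3′ to 5′ ratio, a measure of RNA integrity, averaged 1.25 ± 0.03 in severe and 0.977 ± 0.076 in naive joints (SD, n = 3 each), and the Gapdh 3′ to 5′ ratio 0.891 ± 0.067 in severe and 0.853 ± 0.032 in naive joints, where the groups overlapped. The part of these differences in the results was not tested, and in whole-tissue RNA fewer cells of a type and less RNA per cell cannot be told apart.

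Severely swollen joints were compared with naive joints to see which genes differ at the strongest inflammation. Of the 76 genes, 59 were called lower and 0 higher, where 22.9% of the 14310 genes tested were lower and 32.2% higher (limma on log2(signal + 16), Benjamini-Hochberg adjusted p under 0.05). The median log2 fold change was -0.64 over the members and 0.11 over all genes. The fold change was negative for 73 members and positive for 3, and 14 members fell by more than 1 log2 unit. All 3 severe arrays lay below all 3 naive arrays for 64 members, as they did for 26% of all genes tested.

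Those counts hold on the authors' scale, where every array has the same trimmed mean. When the arrays were scaled on the hybridization control probe sets instead, the median of all genes moved to 0.53 in severe against naive joints. The members' median was -0.15, and 4 members were lower and 0 higher, where 42.4% of all genes were called in either direction. The geometric mean of the controls ran from 345.5 to 1066.1 units over the arrays, and from 547.4 to 1066.1 within no swelling. It ran from 671.3 to 810.2 in naive, 420.2 to 545.6 in mild, 345.5 to 682.7 in moderate and 421.7 to 631.1 in severe joints. All naive arrays thus lay above all mild and severe arrays. Both the spread within groups and this difference between groups enter every gene on that scale, and their source was not tested. Relative to all genes the members stood at -0.68 on that scale and at -0.75 on the authors' scale. The 4 that remained called were Mrpl18, Mrpl42, Mrpl50 and Mrps36.

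**Figure D1:**
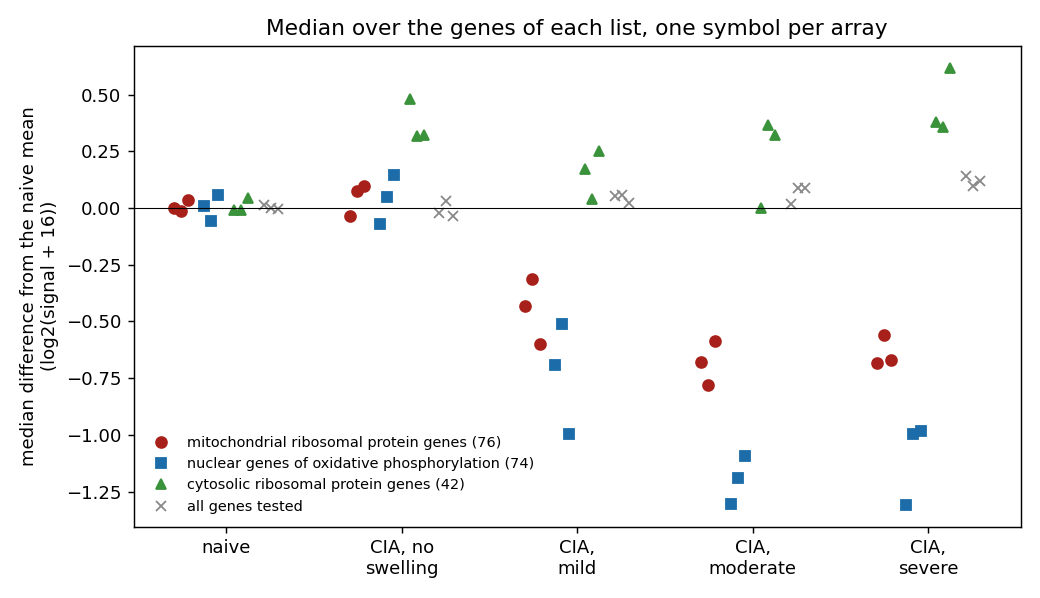
Median difference from the naive mean (log2(signal + 16)) on each of the 15 arrays, by group from naive to severe swelling, for the 76 mitochondrial ribosomal protein genes (circles), 74 nuclear oxidative phosphorylation genes (squares), 42 cytosolic ribosomal protein genes (triangles) and all genes tested (crosses). On the authors' scale the member medians lie between -0.04 and 0.10 in the naive and no swelling arrays and between -0.78 and -0.31 in the swollen ones; on the scale of the hybridization controls the median fold change is 0.18 in mild and -0.15 in severe swelling, against naive.

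Mrpl42, a large-subunit protein found only in mitochondria, had the lowest fold change. Its signal was 1137, 1310 and 1414 in severe joints, against 3864, 3881 and 4214 in naive joints. The severe arrays were thus all far below the naive arrays, and the mean in severe joints was 32.3% of the naive mean. The log2 fold change was -1.62 ± 0.16 (SE, limma adjusted p = 9.9e-07). The YY1 letters in its promoter lie 27 to 33 bases after the start site.

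Mrpl18, the counterpart of a bacterial protein that binds the 5S ribosomal RNA, had 240, 427 and 335 units in severe joints, against 873, 1018 and 845 in naive joints. The groups did not overlap, although severe replicate 2 stood above both other severe arrays. Its log2 fold change was -1.44 ± 0.20 (limma adjusted p = 1.99e-05). Mrpl16, which lies near the peptidyl transferase centre in bacteria, had 396, 421 and 538 units in severe joints, against 1093, 1074 and 1112 in naive joints. The naive arrays were close together and all above the severe ones, with a log2 fold change of -1.26 ± 0.14 (limma adjusted p = 1.79e-06). Mrpl50, specific to mitochondria, had 152, 236 and 216 units in severe joints, against 488, 544 and 512 in naive joints. Here too the groups lay far apart (-1.31 ± 0.20, limma adjusted p = 3.89e-05).

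Mrpl45, which sits at the tunnel exit and anchors the ribosome to the inner membrane, had 269, 270 and 284 units in severe joints, against 732, 520 and 724 in naive joints. The severe arrays were nearly equal, and naive replicate 2 was the lowest naive array. Its log2 fold change was -1.20 ± 0.15 (limma adjusted p = 6.3e-06). Mrps36 bears a small-subunit name, but its product is known as a subunit of the 2-oxoglutarate dehydrogenase complex of the citric acid cycle. It had 296, 307 and 395 units in severe joints, against 952, 764 and 958 in naive joints, again without overlap. The log2 fold change was -1.38 ± 0.18 (limma adjusted p = 9.55e-06), so a gene that shares the name and not the ribosome was among the lowest.

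**Figure D2:**
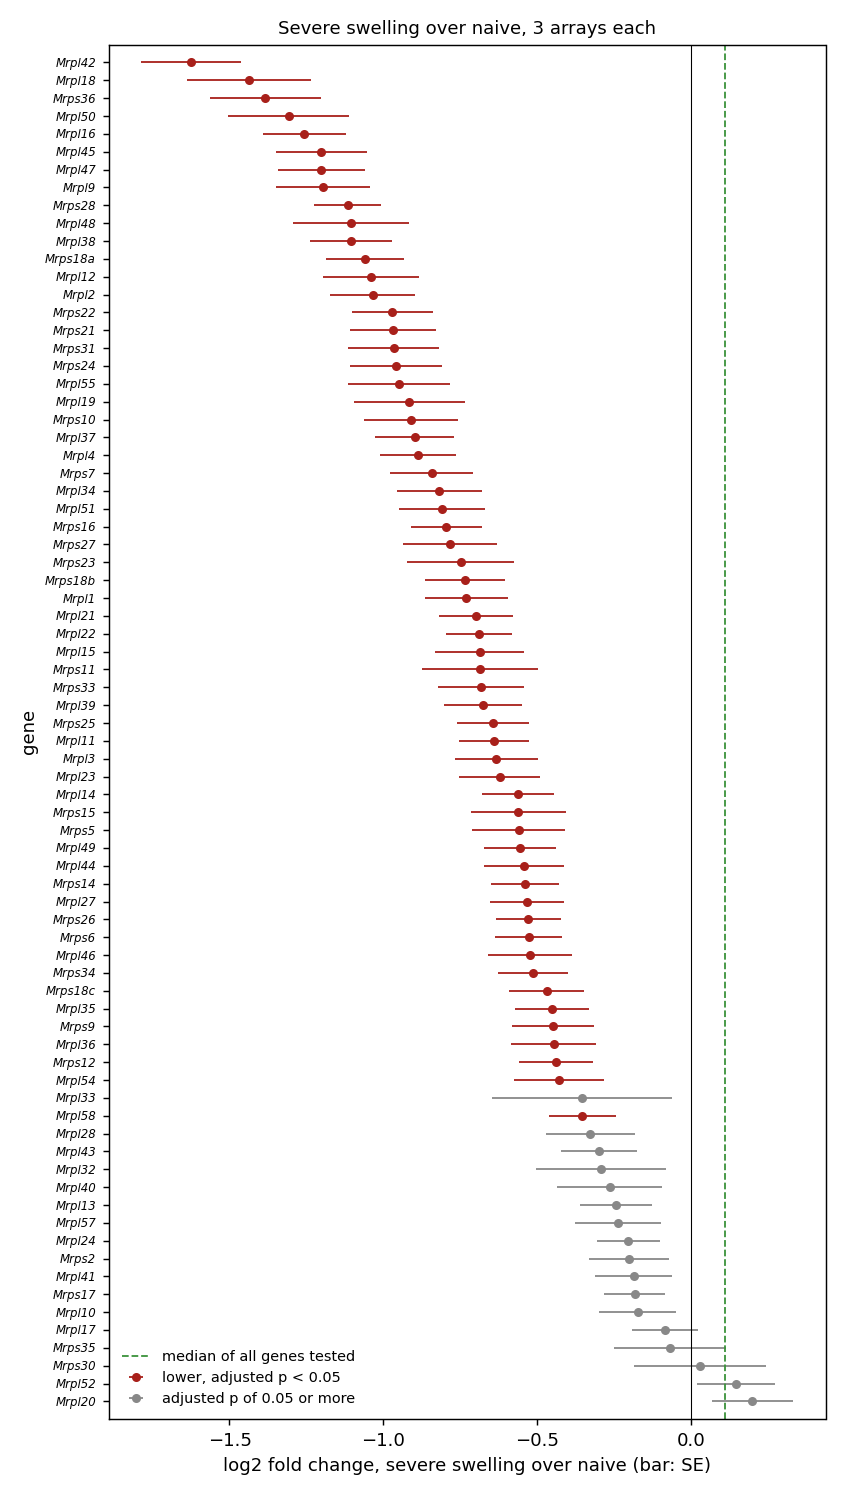
Log2 fold change of each of the 76 genes in severe swelling over naive joints (point) with its standard error (bar), sorted; dark red points had a limma adjusted p under 0.05 and the dashed line is the median of all genes tested (0.11). 73 points lie below 0 on the authors' scale, from -1.62 for Mrpl42 to 0.20 for Mrpl20; on the scale of the hybridization controls 52 lie below 0.

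The stalk of the large subunit recruits translation factors. Mrpl12, its flexible part, which has also been reported to bind mitochondrial RNA polymerase, had 531, 460 and 702 units in severe joints, against 1200, 1037 and 1254 in naive joints. All severe arrays were lower, with a log2 fold change of -1.04 ± 0.15 (limma adjusted p = 3.64e-05). Mrpl11, at the base of the stalk, fell too (-0.64 ± 0.11, limma adjusted p = 0.000179). Mrpl10, which anchors Mrpl12, had 478, 388 and 445 units in severe joints, against 505, 471 and 505 in naive joints. These groups overlapped, and the difference did not pass the test (-0.17 ± 0.12, limma adjusted p = 0.259). Neighbours in the stalk thus differed in size of change, but the difference between them was not tested.

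Other large-subunit members had smaller fold changes than Mrpl42. Mrpl3, whose human counterpart is mutated in a cardiomyopathy, had 358, 360 and 340 units in severe joints, against 553, 545 and 570 in naive joints. Its groups were tight and separate (-0.63 ± 0.13, limma adjusted p = 0.000789). Mrpl44, which has a ribonuclease III-like fold, also fell (-0.54 ± 0.13, limma adjusted p = 0.00212). Mrpl41, specific to mitochondria, had 619, 540 and 554 units in severe joints, against 605, 669 and 681 in naive joints, and the groups overlapped (-0.19 ± 0.12, limma adjusted p = 0.217). Mrpl58, a peptidyl-tRNA hydrolase that rescues stalled ribosomes, had 371, 384 and 405 units in severe joints, against 528, 462 and 506 in naive joints. It fell on the authors' scale (-0.35 ± 0.11, limma adjusted p = 0.012) and was at 0.14, not called, on the scale of the hybridization controls.

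In the small subunit, Mrps12 belongs to the decoding centre. It had 562, 722 and 576 units in severe joints, against 800, 909 and 820 in naive joints. Severe replicate 2 came nearest to the naive arrays, without overlap, and the log2 fold change was -0.44 ± 0.12 (limma adjusted p = 0.00543), against 0.06, not called, on the scale of the hybridization controls. Mrps27, a pentatricopeptide repeat protein, had 92.8, 88.4 and 108 units in severe joints, against 184, 174 and 173 in naive joints, with no overlap, and fell by 0.78 ± 0.15 on the log2 scale (limma adjusted p = 0.000381). Mrps6, the counterpart of a bacterial protein at the rim of the small subunit, had 286, 324 and 354 units in severe joints, against 476, 439 and 493 in naive joints, which did not overlap (-0.53 ± 0.11, limma adjusted p = 0.000717).

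Mammals have 3 paralogues of the bacterial S18 protein, of which the Mrps18a product stands in the large subunit and those of Mrps18b and Mrps18c in the small one. Mrps18a had 513, 580 and 653 units in severe joints, against 1277, 1192 and 1211 in naive joints. It was lower by far on every severe array (-1.06 ± 0.13, limma adjusted p = 4.68e-06). Mrps18b fell by 0.73 ± 0.13 (limma adjusted p = 0.00017). Mrps18c fell by 0.47 ± 0.12 (limma adjusted p = 0.00384) on the authors' scale, with 0.03, not called, on the scale of the hybridization controls. Mrps18a holds the ETS letters at 26 to 20 bases before its start and the YY1 letters at 11 to 17 bases into the transcript. Mrps18b and Mrps18c hold the ETS letters and no match to the YY1 or NRF1 letters.

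The 6 highest fold changes were those of Mrpl20, Mrpl52, Mrps30, Mrps35, Mrpl17 and Mrpl10, none of which passed the test. Mrpl20, which is needed early in large-subunit assembly in bacteria, had 442, 387 and 518 units in severe joints, against 336, 426 and 404 in naive joints. The groups overlapped (0.20 ± 0.13, limma adjusted p = 0.216). Mrps30, which despite its name stands in the large subunit, had 251, 231 and 300 units in severe joints, against 264, 282 and 219 in naive joints. It showed the flattest pattern of these, with a log2 fold change of 0.03 ± 0.21 (limma adjusted p = 0.924). Mrpl52, specific to mitochondria, had 931, 927 and 987 units in severe joints, against 997, 764 and 818 in naive joints (0.15 ± 0.13, limma adjusted p = 0.349). Its other probe sets were all called higher, at 0.51 ± 0.12, 0.435 ± 0.119 and, for a dim one of 24.4 units, 0.63 ± 0.21. Their limma adjusted p-values were 0.00203, 0.00566 and 0.0185. The mean of the log2 values of its probe sets was called higher too (0.43, limma adjusted p = 0.00188). The gene's call thus depends on the probe set read.

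Of the 76 members, 42 have several probe sets, and 38 have several that passed the filter. The call differed between these probe sets for 22 of the 38. Of 140 member probe sets tested by themselves 92 were called lower and 5 higher, the latter including those of Mrpl52 named above. The share called over all 26010 probe sets tested was not counted. Mrpl15 and Mrps9 each had probe sets called in opposite directions. For Mrpl15 the probe set read here averaged 1022.7 units and fell by 0.69 ± 0.15 (limma adjusted p = 0.000898), and a dim one of 30.3 units was called higher (0.65 ± 0.25, adjusted p = 0.0378). For Mrps9 the probe set read averaged 229.4 units and fell by 0.45 ± 0.14 (limma adjusted p = 0.011), and a dim one of 63.1 units was called higher (0.48 ± 0.15, adjusted p = 0.0119). For Mrps21 the probe set read averaged 1102.1 units and fell by 0.97 ± 0.14, and the other, at 36 units, stood at 0.04 ± 0.23 (limma adjusted p = 0.889).

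**Figure D3:**
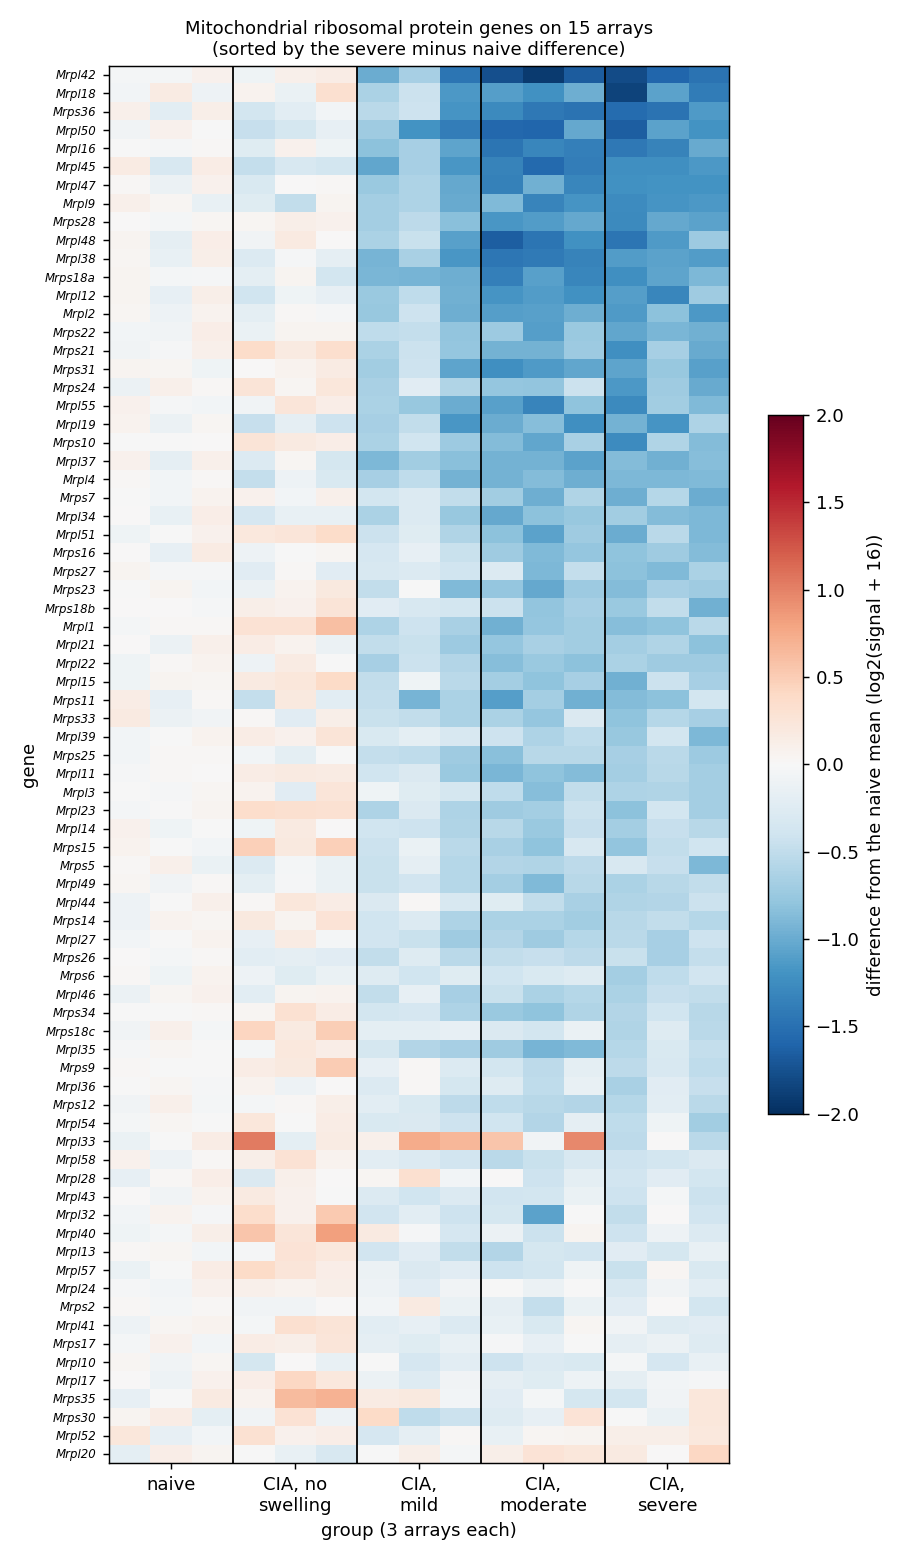
Difference of each gene from its naive mean (log2(signal + 16), colour bar) on every array, with the 76 genes in rows sorted by the severe minus naive difference and the 5 groups of 3 arrays in columns. The change of colour lies between the no swelling and mild columns for most rows on the authors' scale. Those columns overlap in the rows of Mrpl20, Mrps30 and Mrpl33, among others. On the scale of the hybridization controls the members' median in mild swelling is 0.18 above naive.

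Genes of both subunits were lower in severe than in naive joints on the authors' scale. Of the large-subunit proteins with a bacterial counterpart 20 of 28 were lower, with a median of -0.64, and of those specific to mitochondria 14 of 20, with a median of -0.55. In the small subunit the counts were 14 of 16 (median -0.56) and 9 of 10 (median -0.72). None of these 4 lists had a member called higher. Of all genes 22.9% were lower and 32.2% higher. The 4 medians on the scale of the hybridization controls lay between -0.22 and -0.06, still negative, with 1, 2, 0 and 0 members lower. That scaling called 42.4% of all genes in either direction. Mrps18a and Mrps36 stand outside the lists.

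Mildly swollen joints were compared with naive joints to see whether the members differ already at the first visible grade. On the authors' scale 49 members were lower and 0 higher (17% of all genes lower, 22.9% higher), with a median of -0.44 against 0.05 over all genes. This direction turned on the scale of the hybridization controls: the members' median was 0.18, with 0 lower and 1 higher, where 35.8% of all genes were called. All genes stood at 0.58 there, so that the members lay at -0.40 relative to all genes. The member medians of the mild arrays were -0.43, -0.31 and -0.60, with replicate 2, the one apart on the principal component, nearest to naive. The 24 muscle markers had 16 called lower in mild swelling, with a summed signal of 109004 to 121961 in mild and 162604 to 183192 in naive joints. Of the 8 adipocyte markers 5 were lower, with a summed signal of 7002 to 7548 in mild and 12228 to 15963 in naive joints. The part of these differences was not tested.

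The largest decreases in mild swelling on the authors' scale were those of Mrpl50, Mrpl42 and Mrpl45. Mrpl50 had 307, 215 and 186 units in mild joints, against 488, 544 and 512 in naive joints. Every mild array was below every naive array (-1.10 ± 0.20, limma adjusted p = 0.000438). Mrpl42 had 2000, 2500 and 1433 units in mild joints, against 3864, 3881 and 4214 in naive joints (-1.04 ± 0.16, limma adjusted p = 0.000156). Mrpl45 had 310, 407 and 283 units in mild joints, against 732, 520 and 724 in naive joints (-0.95 ± 0.15, limma adjusted p = 0.000154). At the other end stood Mrpl33, Mrpl28 and Mrps35, at 0.50, 0.10 and 0.10, none of which passed the test. Mrpl33, a small large-subunit protein with a bacterial counterpart, had 424, 672 and 635 units in mild joints, against 357, 392 and 439 in naive joints, with overlap (limma adjusted p = 0.189).

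Moderately swollen joints were compared with naive joints in the same way. In them 59 members were lower and 0 higher (23.7% of all genes lower, 30.8% higher), with a median of -0.65 against 0.06 over all genes. With hybridization control scaling 7 members were lower and 1 higher (39.6% of all genes called), with a median of -0.17 against 0.47 over all genes. The lowest were Mrpl42 (-1.78 ± 0.16), Mrpl48 (-1.44 ± 0.19) and Mrpl45 (-1.42 ± 0.15). Mrpl48, specific to mitochondria, had 282, 320 and 386 units in moderate joints, against 944, 808 and 999 in naive joints, with no overlap (limma adjusted p = 1.12e-05). The highest were Mrpl33 (0.48 ± 0.29) and Mrpl20 (0.21 ± 0.13), neither of which passed the test. On the authors' scale 48 members were called lower at all 3 grades of swelling against naive, comparisons that share the naive arrays. That share was not counted over all genes, but it cannot exceed the 17% of them called lower in mild swelling. Of the muscle markers, 20 of 24 were called lower in moderate joints.

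Immunized joints without swelling were compared with naive joints to see whether the genes differ in the absence of swelling. None of the 76 members was called by limma, where 1.52% of all genes were higher and 1.8% lower, and 9 members had an unadjusted p under 0.05. The share of all genes under that unadjusted p was not counted. The median was 0.04 over the members and -0.01 over all genes. Mrpl40, specific to mitochondria, had 399, 319 and 480 units without swelling, against 250, 258 and 290 in naive joints. All 3 arrays without swelling were higher, but the difference did not pass the test (0.54 ± 0.17, limma adjusted p = 0.0977). Mrpl1, of the stalk near the ribosomal exit site, had 246, 246 and 311 units without swelling, against 194, 202 and 202 in naive joints, likewise without overlap and not called (0.39 ± 0.14, limma adjusted p = 0.129). Mrps35 stood at 0.47 ± 0.18, and at the low end Mrpl45 at -0.38 ± 0.15, Mrpl19 at -0.35 ± 0.18 and Mrpl50 at -0.33 ± 0.20, with limma adjusted p-values of 0.174, 0.173, 0.312 and 0.393. For 17 members all 3 arrays without swelling lay above all naive arrays (12.9% of all genes) and for 6 they lay below (14.2%).

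**Figure D4:**
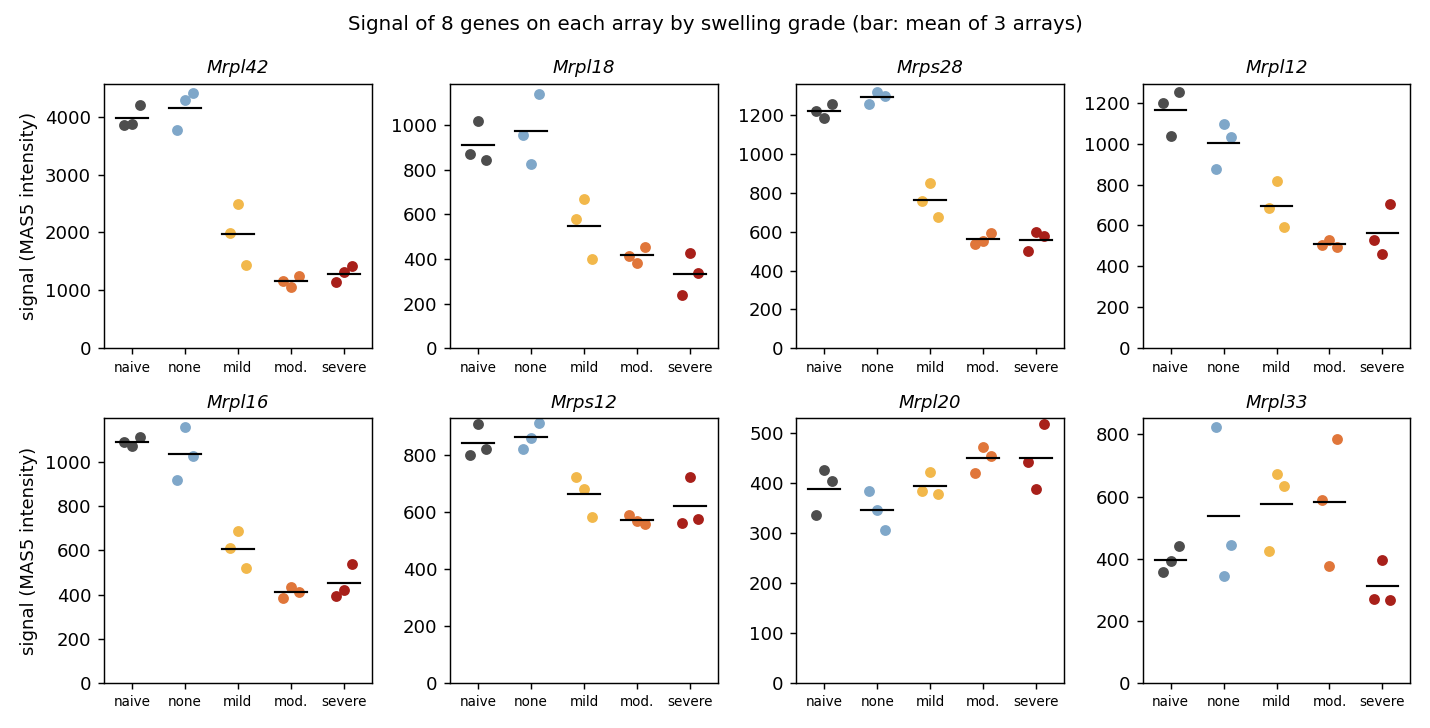
Signal (MAS5 intensity units, axes from 0) of 8 genes on each array, by group from naive to severe swelling, with the mean of the 3 arrays as a bar. Mrpl42, Mrpl18, Mrps28, Mrpl12 and Mrpl16 separate the swollen from the other arrays on the authors' scale, whereas Mrpl20 and Mrpl33 overlap between severe and naive joints.

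Swollen joints were also set against the immunized joints without swelling, which share the immunization. In severe swelling 69 members were lower and 1 higher (21.9% of all genes lower, 33% higher), with a median of -0.70 against 0.14 over all genes. With hybridization control scaling 2 were lower and 1 higher (47.8% of all genes called), with a median of -0.07 against 0.66 over all genes. The lowest were Mrpl42 (-1.68 ± 0.16), Mrpl18 (-1.52 ± 0.20) and Mrps21 (-1.26 ± 0.14). Mrps21, whose promoter holds NRF1 and ETS letters, had 589, 872 and 684 units in severe joints, against 1814, 1588 and 1760 without swelling, with a wide gap between the groups (limma adjusted p = 3.06e-06). The 1 higher member was Mrpl20, with 442, 387 and 518 units in severe joints, against 383, 346 and 306 without swelling. Its arrays just failed to overlap (0.36 ± 0.13, limma adjusted p = 0.0283), and it was not called with array medians aligned, with quantile normalization, with only the groups compared, or without no swelling replicate 2 or 3 or severe replicate 1 or 3. Mrpl10, Mrpl28, Mrpl33, Mrpl52, Mrps2 and Mrps30 were not called on the probe sets read. The dim probe set of Mrpl52 was called higher (1.16 ± 0.21, limma adjusted p = 0.000233).

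In mild swelling against no swelling 58 members were lower and 0 higher (15.5% of all genes lower, 22.9% higher), with a median of -0.51 against 0.09 over all genes. On the scale of the hybridization controls the direction turned here as well, with a median of 0.26 against 0.71 over all genes. There 0 members were lower and 3 higher, where 45.5% of all genes were called. The lowest on the authors' scale were Mrpl42 (-1.10 ± 0.16), Mrpl1 (-0.95 ± 0.14) and Mrps21 (-0.90 ± 0.14). Mrpl1 had 124, 146 and 121 units in mild joints, against 246, 246 and 311 without swelling, and no array came near the other group (limma adjusted p = 0.000113). Leaving out no swelling replicate 3 or mild replicate 3 left 41 and 43 members lower.

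Moderate against mild swelling had 7 members lower and 0 higher (3.38% of all genes lower, 3.21% higher), with a median of -0.24 against 0.01 over all genes, and 25 members had an unadjusted p under 0.05. How many of all genes had such an unadjusted p was not counted. The fold change was negative for 69 members, and with array quality weights 38 were called lower and 1 higher, where 31.9% of all genes were called. The 7 were Mrpl42 (-0.73 ± 0.16), Mrpl48 (-0.71 ± 0.19), Mrps36 (-0.68 ± 0.18), Mrpl16 (-0.54 ± 0.14), Mrpl38 (-0.48 ± 0.13), Mrps16 (-0.47 ± 0.11) and Mrps28 (-0.43 ± 0.11), with limma adjusted p-values between 0.0167 and 0.0436. Mrps28, specific to mitochondria, had 535, 553 and 594 units in moderate joints, against 760, 850 and 678 in mild joints, and its groups did not overlap. Mrps16, which has a bacterial counterpart, had 795, 709 and 762 units in moderate joints, against 1037, 1173 and 958 in mild joints, also apart. This count rests on single arrays: it was 0 without mild replicate 1, mild replicate 2 or moderate replicate 2, 2 without moderate replicate 1 or 3, and 15 without mild replicate 3. In the same order 2.75%, 1.37%, 1.64%, 4.17%, 2.8% and 14% of all genes were called. Scaled on the hybridization controls the count of members was 0 (1.61% of all genes called), with a median of -0.38 against -0.11 over all genes.

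Severe against moderate swelling had 0 members called by limma, as it had 0 of all genes (0%), and 3 members with an unadjusted p under 0.05: Mrpl33 (-0.84 ± 0.29), Mrpl35 (0.39 ± 0.12) and Mrpl38 (0.29 ± 0.13). Over all genes the share with such an unadjusted p was not counted. The median was 0.03 over the members and 0.03 over all genes. Mrpl33 had 269, 396 and 267 units in severe joints, against 589, 376 and 785 in moderate joints, so that replicate 2 of moderate lay within the severe range. The lowest of the 5 group means was in moderate swelling for 43 members, in severe for 27, in mild for 5 and in no swelling for 1. The highest was in no swelling for 44 members and in naive for 28.

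A slope over the CIA grades, scored 0 for no swelling to 3 for severe, was lower for 69 members and higher for 1 (22.6% of all genes lower, 33.5% higher). On the scale of the hybridization controls it was lower for 2 and higher for 1, where 45.7% of all genes were called. The median was -0.06 against 0.19 over all genes there, where the authors' scale gave -0.23 against 0.04. Mrpl42 had the steepest slope on the authors' scale (-0.58 ± 0.05 log2 units per grade, limma adjusted p = 4.48e-07), then Mrpl18 (-0.49 ± 0.06) and Mrps36 (-0.42 ± 0.06). The gene with a positive call was Mrpl20 (0.13 ± 0.04, limma adjusted p = 0.0161), a call lost with array medians aligned and without no swelling replicate 3 or severe replicate 3. The test for any difference among the 5 groups called 67 members (60.5% of all genes), or 4 on the scale of the hybridization controls (52% of all genes). The 9 members it did not call were Mrpl10, Mrpl20, Mrpl24, Mrpl28, Mrpl33, Mrpl41, Mrpl52, Mrps2 and Mrps30. On the probe sets read, Mrpl28, Mrpl33, Mrps2 and Mrps30 were called in no comparison. Dimmer probe sets were called lower in severe against naive joints for Mrps2 (-1.22 ± 0.12, limma adjusted p = 1.13e-06) and Mrpl28 (-0.46 ± 0.16, limma adjusted p = 0.0248), and that of Mrps2 also in severe joints against no swelling (-0.77 ± 0.12, limma adjusted p = 8.27e-05).

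Both genes of the head-to-head pair, Mrps11 and Mrpl46, were called lower in severe against naive joints on the authors' scale, as were 77.6% of the members. On the scale of the hybridization controls they stood at -0.21 and -0.04, neither of them called. Mrps11 had 145, 150 and 211 units in severe joints, against 308, 246 and 282 in naive joints, and Mrpl46, specific to mitochondria, had 214, 242 and 238 units in severe joints, against 313, 347 and 360 in naive joints. Neither gene's groups overlapped, with log2 fold changes of -0.69 ± 0.19 (limma adjusted p = 0.00592) and -0.52 ± 0.14 (limma adjusted p = 0.00403). Motif letters and calls did not map onto each other one to one: of the members with a window, 35 of 52 called lower in severe joints and 6 of 15 not called held at least 1 of the 3 motifs. Mrpl16, among the lowest members, held none of the 3 motifs, and Mrpl52, which was not called, held both the ETS and the YY1 letters.

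The other genes of mitochondrial translation were read from lists by role. In severe against naive joints 3 of 4 further ribosomal subunits, 13 of 24 assembly factors, 7 of 10 translation factors and 7 of 16 mitochondrial tRNA synthetases were lower and none was higher, where 22.9% of all genes were lower and 32.2% higher. Ptcd3, a small-subunit protein, fell by 1.02 ± 0.15 (limma adjusted p = 3.31e-05), whereas Dap3, a GTP-binding small-subunit protein known also from apoptosis, stood at 0.27 ± 0.12 (limma adjusted p = 0.0664). Eral1, which chaperones the small-subunit ribosomal RNA, fell by 1.23 ± 0.14 (limma adjusted p = 2.62e-06). The elongation factor Gfm1 fell by 1.32 ± 0.16 and the recycling factor Gfm2 by 1.54 ± 0.19 (limma adjusted p = 5.23e-06 and 5.32e-06). Yars2, the tyrosyl-tRNA synthetase of mitochondria, averaged 35.43 ± 2.82 units in severe and 183.4 ± 3.15 in naive joints (SD, n = 3 each) and fell by 1.96 ± 0.13 (limma adjusted p = 5.62e-08). On the scale of the hybridization controls the synthetases' median was 0.05, with 2 lower and none higher, and 1 translation factor and no further subunit or assembly factor was called. There 42.4% of all genes were called.

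Genes that maintain or transcribe mitochondrial DNA or handle its RNA were lower in 11 of 17 cases and higher in none in severe against naive joints. For this list and the next ones, 22.9% of all genes were lower and 32.2% higher. Polrmt, the mitochondrial RNA polymerase, fell by 0.95 ± 0.15 and Tfam, which packages and activates mitochondrial DNA, by 0.64 ± 0.14 (limma adjusted p = 4.88e-05 and 0.00127). Genes of import, the outer membrane, chaperones and proteases were lower in 17 of 23 cases and higher in none. The nuclear genes of oxidative phosphorylation, which are assembled with the products of mitochondrial translation, were lower in 70 of 74 cases, with a median of -1.08. The 3 that rose were Cox6a1, Cox8a and Cox7c. Cox7a1, a cytochrome oxidase subunit typical of heart and skeletal muscle, averaged 373.4 ± 70.9 units in severe and 3762 ± 249 in naive joints and fell by 3.29 ± 0.26 (limma adjusted p = 1.61e-07). Cox6a1, the form found widely outside muscle, averaged 3545 ± 722 units in severe and 1335 ± 132 in naive joints and rose by 1.38 ± 0.21 (limma adjusted p = 3.62e-05). Scaled on the hybridization controls, 29 of the oxidative phosphorylation genes were lower and 3 higher. There 1 gene of the import and outer-membrane list and none of the 17 for mitochondrial DNA and its RNA was called. That scaling called 42.4% of all genes.

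The ribosome of the cytosol did not share the direction of the members in severe against naive joints. Of 41 cytosolic ribosomal protein genes tested, 29 were higher and 0 lower, where 32.2% of all genes were higher and 22.9% lower. Their median of 0.45 stayed positive under each of the 3 other scalings (0.29 to 0.97). Rpl12 averaged 215.4 ± 8.45 units in severe and 68.13 ± 5.97 in naive joints and rose by 1.46 ± 0.14 (limma adjusted p = 5.61e-07). In joints without swelling against naive 3 of the 41 were higher and 0 lower (1.52% of all genes higher, 1.8% lower), with a median of 0.38. Against no swelling, 5 were higher and 0 lower in severe joints (33% of all genes higher, 21.9% lower), with a median of 0.06 where all genes stood at 0.14. In mild joints against no swelling 2 were higher and 6 lower (22.9% of all genes higher, 15.5% lower), with a median of -0.24.

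**Figure D5:**
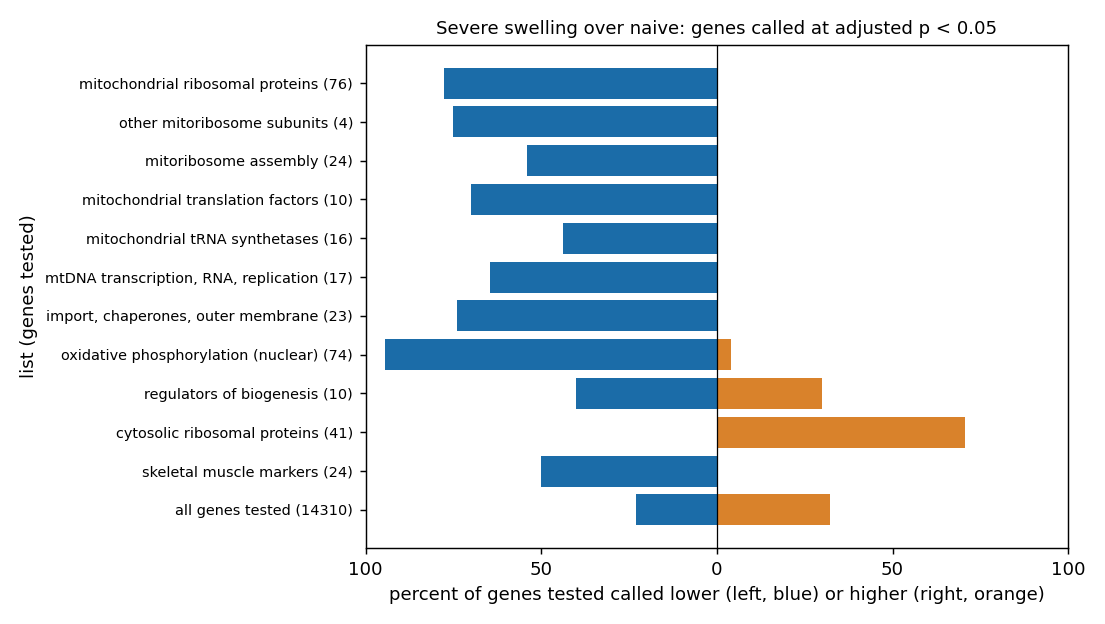
Percent of the genes tested in each list (number in brackets) that were called lower (left, blue) or higher (right, orange) in severe swelling over naive joints by limma at an adjusted p under 0.05 on the authors' scale. The mitochondrial ribosomal proteins have 77.6% lower and 0% higher, where all genes tested have 22.9% lower and 32.2% higher. On the scale of the hybridization controls 4 of the 76 are lower, and 42.4% of all genes are called in either direction.

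The regulators of mitochondrial gene expression went both ways in severe against naive joints, with 3 of 10 higher and 4 lower, where 32.2% of all genes were higher and 22.9% lower. Ppargc1a, a coactivator that drives mitochondrial biogenesis, fell by 2.14 ± 0.22 (limma adjusted p = 9.9e-07). Esrra, a nuclear receptor that works with it, fell by 2.08 ± 0.25, Ppargc1b fell by 1.15 ± 0.20, and Perm1, a muscle partner of both, fell by 3.91 ± 0.36 (limma adjusted p between 5.49e-07 and 0.000181). Myc, a growth regulator, averaged 297.4 ± 52.0 units in severe and 36.2 ± 2.97 in naive joints and rose by 2.58 ± 0.21 (limma adjusted p = 2.19e-07). Myc was also called higher in joints without swelling (1.13 ± 0.21, limma adjusted p = 0.00967), where no member was called. Pprc1 rose by 0.71 ± 0.15 and Nrf1, which encodes the factor NRF1, by 0.61 ± 0.16 (limma adjusted p = 0.0007 and 0.00381). Gabpa stood at 0.12 ± 0.13 and Yy1 at 0.22 ± 0.12, neither of which passed the test. The direction of each of the 7 called regulators was kept on the scale of the hybridization controls, where Ppargc1b was no longer called.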

How the data were processed

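Biotin-labelled total RNA was hybridized on 1 Affymetrix array for each of the 15 samples, per the labels. The authors computed the deposited intensity values with MAS5, according to the submitters' processing notes, which as used here give no version. The values are on a linear scale and have a mean of 150 on every array once 2% is trimmed at either end, so no further scaling was applied. Array medians were 36.3 to 47.6 units, and precision is limited by how few arrays a group has.

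Groups follow the sample titles. Probe sets were named through the platform annotation, which can be old: 34958 of them carried 1 symbol, 932 several and 9211 none here, and those with several name no gene. Each gene was read from the probe set with the highest mean of log2(signal + 16), a scale that understates changes of dim genes. Genes whose signal exceeded the 40th percentile of the same array on 3 or more arrays were tested, with 1 mean per group over all 15 arrays, limma 3.58.1 (R 4.3.3) with an intensity trend, and Benjamini-Hochberg adjustment over the 14310 genes tested. The steps were first tested on simulated data.

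Named members are the 6 lowest and 6 highest in severe against naive, the 3 lowest and highest in each other comparison, a panel by role and members with conflicting probe sets; other names were chosen after values were seen, and so were Mrps11 and Mrpl46. The members, lists and rules were chosen with earlier results of these data known. Alternatives were pseudocounts of 1 and 64, other filters, scalings and probe set choices, each probe set by itself (added after seeing the data), no trend, only the groups compared, the replicate block, array weights and leaving out each array.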

Additional observations from a re-analysis of the deposited data

How the results depend on the processing

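Scaling on the 9 hybridization control probe sets moved every count of called members but those without swelling against naive and in severe against moderate swelling: it gave 4 in severe, 8 in moderate and 1 in mild swelling against naive, 3 in severe and 3 in mild against no swelling, 0 in moderate against mild, 3 for the slope and 4 for any difference. In the same order it called 42.4%, 39.6%, 35.8%, 47.8%, 45.5%, 1.61%, 45.7% and 52% of all genes. On that scale 7 members called on the authors' scale changed sign in severe against naive joints, to 0.044 (Mrpl35), 0.044 (Mrpl36), 0.067 (Mrpl54), 0.143 (Mrpl58), 0.063 (Mrps12), 0.029 (Mrps18c) and 0.03 (Mrps9). With the second highest probe set Mrps21 changed sign (0.044), and 32 members were called in mild swelling against naive, 38 in mild against no swelling and 4 in moderate against mild, of 72 tested. In the same order 35.7%, 32.9% and 4.93% of all genes were called there. Moderate against mild was the least stable: 3 with no intensity trend (4.69% of all genes), 0 with only the groups compared (0.196%) and 4 with the replicate block (4.79%). It was 39 with array quality weights (38 lower, where 31.9% of all genes were called). Leaving out 1 array gave 0 to 15, with 14% of all genes called where it was 15. Without swelling against naive, array weights called 2, where 8.08% of all genes were called. Leaving out 1 array called 0 to 1 (1 without no swelling replicate 2, where 3.84% of all genes were called). Leaving out 1 array gave 57 to 62 in severe, 55 to 62 in moderate and 37 to 54 in mild swelling against naive. Of 30 correlations between same-numbered samples' deviations (-0.50 to 0.33) 5 were over 0.1. All 3 were so for no swelling with moderate (0.15, 0.33 and 0.19). These 2 groups were not compared as a pair, but both enter the slope and the test for any difference. For no pair of groups compared were all 3 over 0.1, and the numbers were not taken as pairs. The replicate block gave 59 called in severe against naive and moved no count but that of moderate against mild by over 1.5 times. Of 1007 values of 36 named genes in severe against naive joints under other settings, 968 kept their side of the threshold and, where called, their direction. Of the others 23 lost the call, 10 gained one and 6 changed direction. Most of the lost calls and changed directions came from the scaling on the hybridization controls alone, and many of the 1007 values come from leaving out 1 array. The cause was not tested. The same trimmed mean on every array cannot show a change in total RNA per cell, and dim genes are limited by signal over background.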
